A study of Mus musculus with 4 samples.

Results

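The 31 genes described here serve the folding of proteins in the endoplasmic reticulum and the response to unfolded protein there. They were chosen by name as chaperones, disulfide isomerases and oxidases, translocon subunits, degradation factors and stress sensors, with no measured value in the rule. Earlier results of these data were known when the choice was made. All 31 of them are among the 23366 genes of the table, and 30 had a mean level of 1 FPKM or more across the 4 libraries, as did 11640 genes in all without small RNA genes; these are called measured. The exception is Derl3, a degradation factor, at 0.155 FPKM with Myc, 0.113 with MycN and 0.0794 with Minimal Myc, against 0.0785 in vector. FPKM count sequenced fragments per unit of transcript length and of library size.

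RNA-seq was read in immortalized mouse embryonic fibroblasts carrying Myc, MycN, a protein labelled Minimal Myc, or an empty vector, with 1 library from each culture. All 4 cultures had received adenoviral Cre recombinase and recovered for 48, a time given without a unit. The stated design sets cells with deleted Myc against cells that hold one of the Myc proteins. The labels give no clone or culture numbers, promoter of the Myc constructs, strain or sex. With 1 library per group no test is possible and no difference below has a replicate check. Read depth is unknown because only FPKM are given.

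Proteins that are secreted or set in membranes enter the endoplasmic reticulum through the Sec61 channel and fold there with chaperones, sugar-binding lectins and enzymes that form disulfide bonds. When unfolded protein builds up, the membrane sensors Ern1, Atf6 and Perk act. Ern1 splices the Xbp1 transcript so that it encodes an active transcription factor, and Atf6 is cut in the Golgi to release another. Both factors switch on chaperone and degradation genes, while Perk slows translation and favours Atf4. Fibroblasts make much collagen and so use this folding machinery heavily.

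Checks of the libraries come before the values. Myc stood at 141 FPKM with Myc, 4.36 with MycN and 32.6 with Minimal Myc, against 22.2 in vector, so the vector cells are not shown to lack Myc. Mycn was at 178 FPKM in MycN and 95.9 in Minimal Myc, and below 1 in the others. All 9 fibroblast markers were measured, with summed FPKM of 2292 with Myc, 1679 with MycN and 2156 with Minimal Myc, against 1723 in vector. Summed FPKM were 0.140 to 0.663 for 6 epithelial markers, 0.146 to 1.18 for 4 endothelial markers and 1.14 to 2.95 for 5 immune markers. Adipocyte markers summed to 53.1 FPKM in MycN, nearly all from Fabp4, and to 7.61 to 9.81 elsewhere; Adipoq and Plin1 were below 1 in every library. Skeletal muscle markers summed to 13.8 to 19.8 FPKM, with Myod1 at 0 throughout, and neural markers to 12.4 to 23.8. The vector library stood apart in the small RNA gene Mir5109, which was at 6331 to 26320 FPKM in the libraries with a Myc protein, against 185861 in vector. The median difference of all genes from vector was 0.47 with Myc, 0.42 with MycN and 0.47 with Minimal Myc, on the log2(FPKM + 1) scale used throughout for differences. The part of this shift in the values below was not tested, so the counts of the whole set are also given relative to it. In bulk RNA, a smaller share of cells expressing a gene and less RNA per cell cannot be told apart.

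The promoters of many of these genes hold the endoplasmic reticulum stress response element, which Atf6 binds together with the CCAAT-binding factor NF-Y. Its letters, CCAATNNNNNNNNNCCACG, were searched on both strands in the 250 bases before the start of each RefSeq gene model in mouse build GRCm38.p6. A window was found for 26 of the 31 genes, and 10 of these 26 (38.5%) held the element, against 35 of 27025 genes of the genome (0.130%). The genes were listed as members of this response, so that share is a description and not an independent finding. Hspa5 is shown in full because its promoter is the textbook example, with the CCAAT and CCACG ends of the element in capitals, from chr2:34771840-34772089 on the plus strand of GRCm38.p6:
Hspa5: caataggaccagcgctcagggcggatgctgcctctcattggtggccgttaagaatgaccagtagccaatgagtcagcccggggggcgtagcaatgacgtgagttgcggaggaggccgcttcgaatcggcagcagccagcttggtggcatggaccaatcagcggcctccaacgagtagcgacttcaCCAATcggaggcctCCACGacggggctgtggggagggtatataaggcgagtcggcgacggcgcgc

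The exact match in Hspa5 lies 65 to 47 bases before the start. The other matches are shown so that the fixed ends can be compared with the variable spacer of 9 bases. Each is read along the gene's own strand, so a match on the opposite strand begins CGTGG and ends ATTGG, and capitals mark the ends. Hsp90b1 holds a pair of them, at chr10:86705638-86705656 and chr10:86705533-86705551. The others lie at chr14:118937827-118937845 (Dnajc3), chr15:88819520-88819538 (Creld2), chr8:84847075-84847093 (Calr), chr11:50325800-50325818 (Canx), chr12:17266491-17266509 (Pdia6), chr13:12565682-12565700 (Ero1lb), chr19:6046532-6046550 (Syvn1) and chr10:75893242-75893260 (Derl3).
Hsp90b1, first: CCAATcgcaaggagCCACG
Hsp90b1, second: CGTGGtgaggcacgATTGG
Dnajc3: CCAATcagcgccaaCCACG
Creld2: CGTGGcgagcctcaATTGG
Calr: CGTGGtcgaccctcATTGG
Canx: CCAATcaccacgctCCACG
Pdia6: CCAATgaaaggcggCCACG
Ero1lb: CGTGGtcccgcctcATTGG
Syvn1: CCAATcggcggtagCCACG
Derl3: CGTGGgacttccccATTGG

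Herpud1 holds the second form of the element, ATTGGNCCACG, 52 to 42 bases before its start, and was the 1 gene of 26 (3.85%) with it, against 0.0370% of all genes. It is shown with 5 bases on each side, at chr8:94386372-94386392 on the plus strand, with the element in capitals.
Herpud1: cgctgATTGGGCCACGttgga

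The E-box CACGTG, the preferred site of Myc with its partner Max, was in the window of Dnajb9, Calr, Ssr1 and Derl3, which is 4 of 26 genes (15.4%) against 6.86% of all genes. None of the 11 element sites overlapped an E-box. A match is a stretch of letters and does not show binding.

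As a whole the set was highly expressed and stood above vector in most genes. The mean over the libraries had a median of 38.8 FPKM over the 30 measured genes and of 11.7 FPKM over all 11640. Summed over the 31 genes the level was 3650 FPKM with Myc, 3038 with MycN and 3718 with Minimal Myc, against 2073 in vector. Over all 11640 genes the median level was 12.5 FPKM with Myc, 11.9 with MycN and 12.9 with Minimal Myc, against 8.69 in vector. All rows summed to 608950 to 671847 FPKM in the libraries with a Myc protein. In vector they summed to 605552 FPKM, with Mir5109 at 185861. How far the sums of the set follow from this was not tested. Of the 30, 24 (80.0%) were above vector in all 3 libraries with a Myc protein, against 68.0% of all genes. At least 2-fold higher than vector were 5 of 30 genes in Myc (16.7%, background 11.2% of all genes), 0 of 30 in MycN (background 7.65%) and 8 of 30 in Minimal Myc (26.7%, background 13.6%). None was at least 2-fold lower, where the backgrounds were 1.56%, 1.86% and 1.68%. The median difference of the set was 0.68 with Myc, 0.27 with MycN and 0.79 with Minimal Myc. Relative to the median of all genes it stood at 0.20, -0.15 and 0.32 in the same order, so the set lay below the typical gene in MycN. Counted relative to that median, 0 genes with Myc, 0 with MycN and 1 with Minimal Myc were at least 2-fold higher, where the backgrounds were 1.87%, 1.86% and 3.71%. On that count 0 genes were at least 2-fold lower in each, with backgrounds of 4.38%, 4.19% and 4.68%. In the authors' scaled table, which multiplies each library by a factor, 27 genes with Myc, 4 with MycN and 17 with Minimal Myc were at least 2-fold higher than vector, where the backgrounds in that table were 78.5%, 27.4% and 33.7%. The factors also move the median of all genes there, to 1.42, 0.76 and 0.80. Levels and orders of the libraries for single genes below are unscaled unless stated, and the factors change some of these orders.

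**Figure D1:**
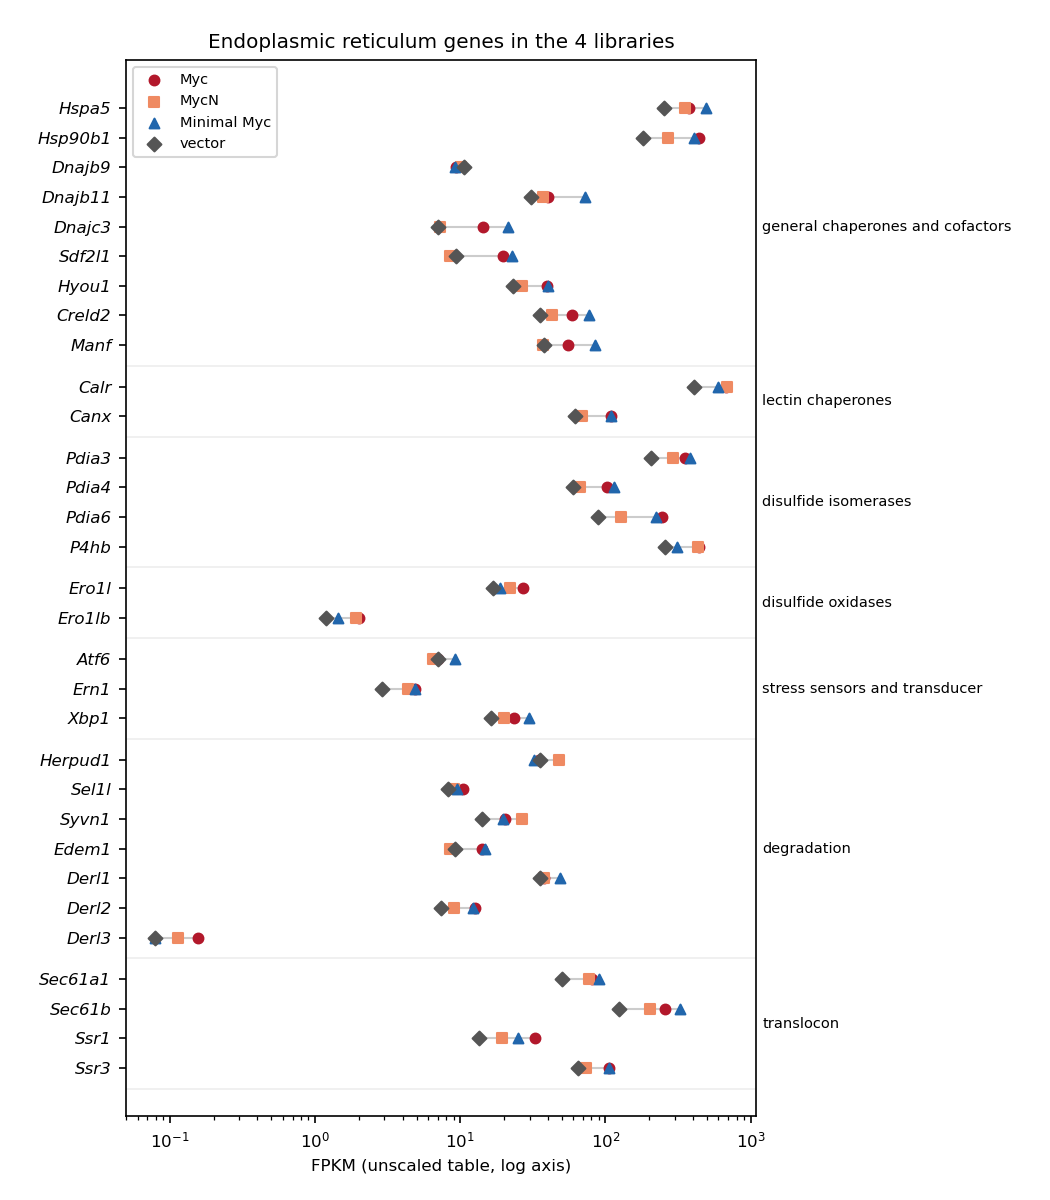
Level of each of the 31 genes in FPKM (log axis), by role, with 1 point per library for Myc, MycN, Minimal Myc and vector. Vector was the lowest library for 24 of the 30 measured genes (80.0%, against 68.0% of all genes). Minimal Myc was the highest for 17 (56.7%, against 35.8% of all genes). Both counts are of unscaled values and depend on the scaling.

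The chaperones that bind unfolded chains, with their helpers, had the largest median of the 7 roles in Minimal Myc and the smallest in MycN. Of these 9 genes, 6 were at least 2-fold higher than vector in Minimal Myc (background 13.6%), 2 in Myc (background 11.2%) and 0 in MycN (background 7.65%). The medians were 1.14, 0.70 and 0.19 in that order. Relative to the median of all genes, 1, 0 and 0 of the 9 were at least 2-fold higher, with medians of 0.67, 0.23 and -0.23. Hspa5, the master chaperone known as BiP, stood at 376 FPKM with Myc, 352 with MycN and 496 with Minimal Myc, against 252 in vector. Its difference from vector was 0.98 in Minimal Myc, just under the 2-fold line, and 0.58 in Myc and 0.48 in MycN. Hsp90b1, the Hsp90 of this compartment, was at 437 FPKM with Myc, 269 with MycN and 407 with Minimal Myc, against 182 in vector. It was past 2-fold in both Myc (1.26) and Minimal Myc (1.16).

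Dnajc3, a co-chaperone that delivers clients to Hspa5, had the largest difference from vector of the set. It was at 14.3 FPKM with Myc, 7.24 with MycN and 21.4 with Minimal Myc, against 7.05 in vector. The ratio of Minimal Myc to vector was 3.03, and Dnajc3 was the 1 gene still 2-fold higher relative to the median of all genes. MycN and vector were almost level for this gene. Dnajb11, another co-chaperone, was at 40.0 FPKM with Myc, 37.3 with MycN and 72.5 with Minimal Myc, against 30.8 in vector. Minimal Myc alone was thus high before scaling, while scaled values were 81.5 with Myc and 93.1 with Minimal Myc. Sdf2l1, which works in a complex with Dnajb11, was at 19.8 FPKM with Myc, 8.52 with MycN and 22.8 with Minimal Myc, against 9.36 in vector. Myc and Minimal Myc were high and MycN was slightly below vector, but slightly above it when scaled (11.1, against 9.36).

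Manf and Creld2 encode small secreted proteins made in the stress response. Manf was at 55.0 FPKM with Myc, 37.4 with MycN and 85.1 with Minimal Myc, against 38.0 in vector. Creld2 was at 58.7 FPKM with Myc, 43.1 with MycN and 76.7 with Minimal Myc, against 35.6 in vector. Both were highest in Minimal Myc, with ratios to vector of 2.24 and 2.15. In the scaled table both were highest with Myc, at 112 and 120, against 109 and 98.5 with Minimal Myc. Hyou1, which exchanges the nucleotide of Hspa5, was at 39.6 FPKM with Myc, 26.7 with MycN and 40.3 with Minimal Myc, against 23.2 in vector. Dnajb9, a co-chaperone that holds Ern1 inactive, went the other way before scaling. It stood at 9.41 FPKM with Myc, 10.1 with MycN and 9.18 with Minimal Myc, against 10.6 in vector, and was the 1 measured gene below vector in all 3 libraries. In the scaled table it was above vector in all 3, at 19.2, 13.1 and 11.8 in the same order, against 10.6.

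The lectin chaperones Calr and Canx hold glycoproteins while they fold. Calr was at 674 FPKM with Myc, 691 with MycN and 600 with Minimal Myc, against 407 in vector, the highest level of the set. Before scaling it was nearly the same in the 3 libraries with a Myc protein. Scaled values were 1375 with Myc, 899 with MycN and 771 with Minimal Myc. Canx, its membrane-bound relative, was at 110 FPKM with Myc, 69.1 with MycN and 109 with Minimal Myc, against 62.1 in vector. MycN was thus near vector for Canx and not for Calr.

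Disulfide isomerases shuffle the bonds between cysteines. Pdia6 was at 246 FPKM with Myc, 129 with MycN and 221 with Minimal Myc, against 88.4 in vector, with ratios of 2.78, 1.45 and 2.50. It had the largest difference of the set in Myc (1.47). Of the 4 isomerases it was the 1 past 2-fold in either Myc (background 11.2%) or Minimal Myc (background 13.6%). Pdia3, which acts with Calr and Canx, was at 355 FPKM with Myc, 293 with MycN and 380 with Minimal Myc, against 207 in vector. Pdia4 was at 102 FPKM with Myc, 66.5 with MycN and 114 with Minimal Myc, against 59.7 in vector. P4hb, which is also a subunit of the enzyme that hydroxylates collagen prolines, was at 444 FPKM with Myc, 431 with MycN and 313 with Minimal Myc, against 256 in vector. Unlike the other isomerases it was lowest, among the Myc proteins, in Minimal Myc.

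The oxidases Ero1l and Ero1lb, which recharge the isomerases, shared the order of P4hb. Ero1l was at 27.2 FPKM with Myc, 21.9 with MycN and 18.9 with Minimal Myc, against 16.9 in vector. Ero1lb was low, at 1.997 FPKM with Myc, 1.92 with MycN and 1.43 with Minimal Myc, against 1.19 in vector. For both genes the difference of Minimal Myc from vector (0.16 and 0.15) was below the median of all genes.

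The sensors and their transducer had medians of 0.49 with Myc, 0.27 with MycN and 0.60 with Minimal Myc. Ern1 was at 4.84 FPKM with Myc, 4.34 with MycN and 4.91 with Minimal Myc, against 2.89 in vector. Atf6 was at 7.08 FPKM with Myc, 6.53 with MycN and 9.21 with Minimal Myc, against 7.002 in vector. Xbp1 was at 23.3 FPKM with Myc, 19.9 with MycN and 29.5 with Minimal Myc, against 16.4 in vector. None of the 3 reached 2-fold (backgrounds 11.2% with Myc, 7.65% with MycN and 13.6% with Minimal Myc). All 3 were highest in Minimal Myc, Ern1 by a narrow margin. In the scaled table all 3 were highest with Myc, at 9.88 (Ern1), 14.4 (Atf6) and 47.6 (Xbp1). Scaled values with Minimal Myc were 6.31, 11.8 and 37.9. FPKM of a whole gene do not separate spliced from unspliced Xbp1, nor show whether Ern1 or Atf6 protein is active.

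Genes of degradation, which return misfolded protein to the cytosol, had 0 of 6 measured members past 2-fold in any comparison with vector. The backgrounds were 11.2% with Myc, 7.65% with MycN and 13.6% with Minimal Myc, so a count of 0 among 6 genes is near them. Herpud1, a membrane protein of the export complex, was at 35.0 FPKM with Myc, 47.9 with MycN and 32.3 with Minimal Myc, against 35.6 in vector, so MycN was the high library. Syvn1, the ubiquitin ligase of the complex, was likewise highest in MycN, at 26.5 FPKM, with 20.2 in Myc and 19.6 in Minimal Myc, against 14.0 in vector. In the scaled table both were highest with Myc, at 71.3 (Herpud1) and 41.3 (Syvn1), against 62.3 and 34.5 with MycN. Sel1l, the partner that holds Syvn1, was at 10.4 FPKM with Myc, 9.04 with MycN and 9.52 with Minimal Myc, against 8.22 in vector. Ligase and partner therefore did not share their order. Edem1, which recognises mannose-trimmed proteins, was at 14.0 FPKM with Myc, 8.54 with MycN and 14.9 with Minimal Myc, against 9.19 in vector. Derl1, a channel component, was at 37.5 FPKM with Myc, 37.8 with MycN and 48.5 with Minimal Myc, against 35.5 in vector. Its relative Derl2 was at 12.6 FPKM with Myc, 9.09 with MycN and 12.2 with Minimal Myc, against 7.33 in vector.

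All 4 translocon genes were above vector in the 3 libraries, as were 80.0% of the set and 68.0% of all genes. Sec61b, a small subunit of the channel, was at 257 FPKM with Myc, 204 with MycN and 327 with Minimal Myc, against 123 in vector, and passed 2-fold in Myc and Minimal Myc. Sec61a1, the pore itself, was at 80.9 FPKM with Myc, 77.6 with MycN and 90.3 with Minimal Myc, against 50.5 in vector. Ssr1, a subunit of the complex that assists translocation, was at 32.6 FPKM with Myc, 19.5 with MycN and 25.1 with Minimal Myc, against 13.5 in vector. Ssr3, of the same complex, was at 105 FPKM with Myc, 73.0 with MycN and 106 with Minimal Myc, against 65.0 in vector. Subunits of each complex thus differed from each other in how far Myc and Minimal Myc stood above vector.

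**Figure D2:**
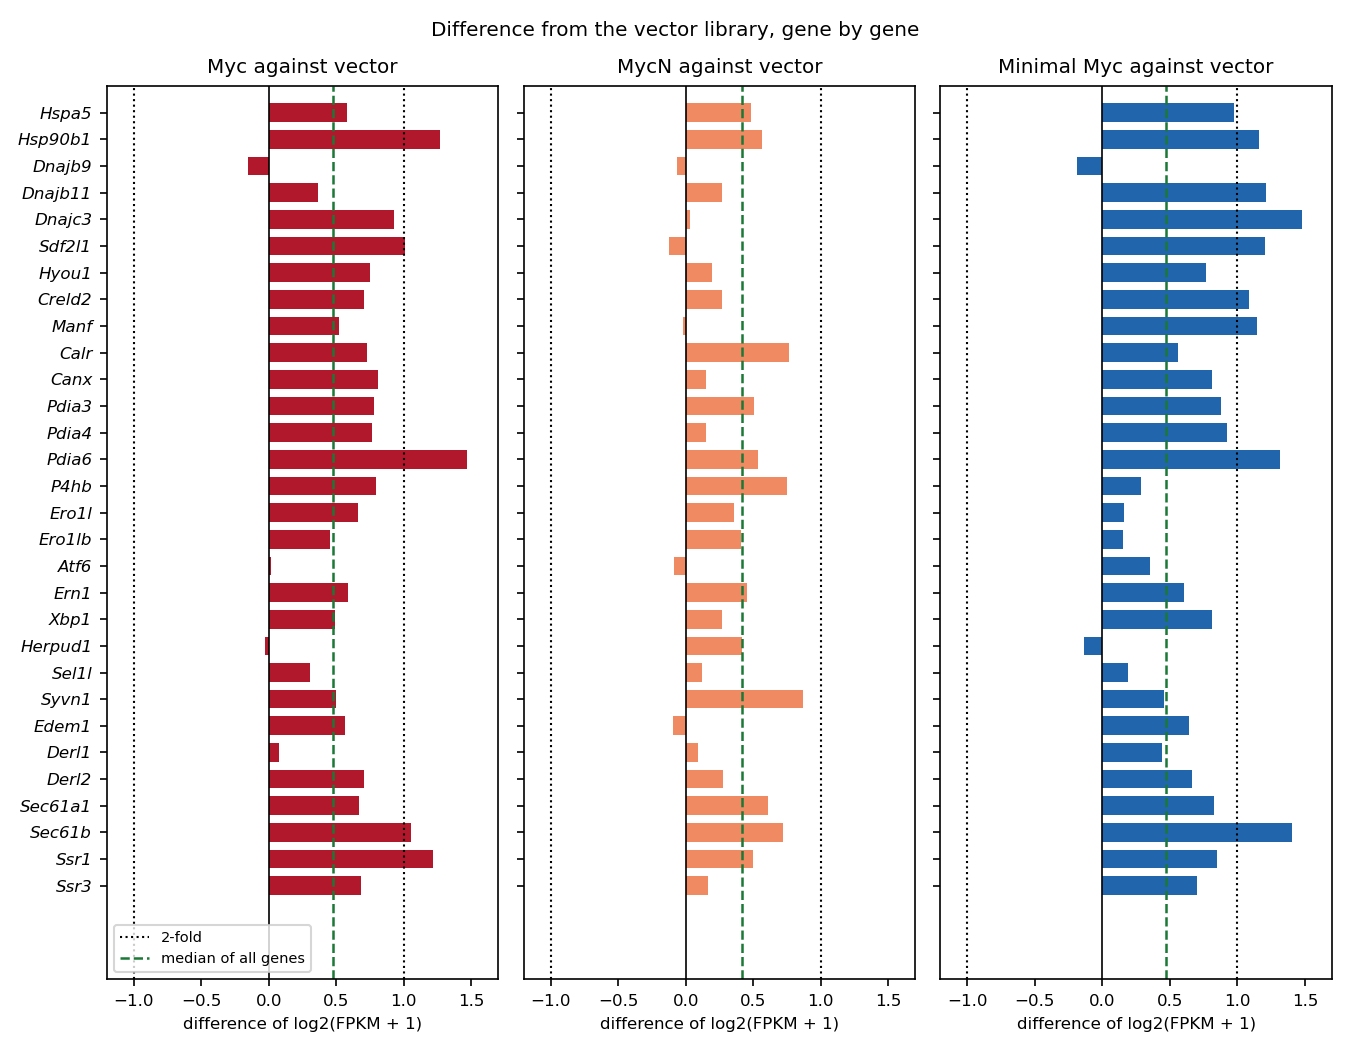
Difference of log2(FPKM + 1) from vector for each of the 30 measured genes in Myc, MycN and Minimal Myc; the dotted lines mark 2-fold and the dashed line the median of all 11640 genes. Past 2-fold were 5 genes with Myc, 0 with MycN and 8 with Minimal Myc (backgrounds 11.2%, 7.65% and 13.6% of all genes). Of these, 4 (Hsp90b1, Sdf2l1, Pdia6 and Sec61b) passed in both Myc and Minimal Myc.

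The 9 genes past 2-fold in any comparison with vector were those 4, with Ssr1 in Myc and Dnajb11, Dnajc3, Creld2 and Manf in Minimal Myc. Dnajc3 in Myc had an FPKM ratio to vector of 2.03 but a difference of 0.93 with 1 FPKM added. With 0.1 FPKM added in its place, 6 genes passed in Myc. The comparisons share the vector library, so their values are given side by side and not as separate support for each other.

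Comparisons between the Myc proteins do not use the vector library, and the median of all genes was -0.06 for MycN against Myc, -0.03 for Minimal Myc against Myc and 0.05 for Minimal Myc against MycN. The set was lowest in MycN. Against Myc, 1 of 30 genes was at least 2-fold lower in MycN (background 2.74%) and 0 were higher (background 1.95%), with a median of -0.29 beside -0.06 over all genes. With scaled values, 13 were lower (background 20.2%), with a median of -0.93 beside -0.67. The 1 gene was Sdf2l1 (-1.13), and Pdia6 (-0.93) and Dnajc3 (-0.90) were just inside the line. Herpud1 (0.44) and Syvn1 (0.37) had the highest unscaled differences. In all, 22 of the 30 genes (73.3%) were lower in MycN than in both Myc and Minimal Myc, against 41.7% of all genes.

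Minimal Myc against MycN gave 3 genes of 30 at least 2-fold higher (background 6.94%) and 0 lower (background 3.69%). They were Dnajc3 (1.44), Sdf2l1 (1.32) and Manf (1.16). The median was 0.47 beside 0.05 over all genes, and 23 of 30 genes were higher in Minimal Myc (76.7%, against 53.3% of all genes). The count past 2-fold, at 10.0%, was near its background. Herpud1 (-0.56), P4hb (-0.46) and Syvn1 (-0.42) were the lowest in Minimal Myc.

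Minimal Myc and Myc stood close together in this set. No gene of 30 was 2-fold higher (background 4.48%) or lower (background 2.16%) in Minimal Myc, and the median was 0.02 beside -0.03 over all genes. The scaled table turned the sign, at -0.60 beside -0.64 over all genes, with 3 genes at least 2-fold lower (background 17.7%). The largest differences were 0.84 for Dnajb11 and 0.62 for Manf. At the other end were P4hb and Ero1l, each at -0.50. Among the 9 chaperones and helpers 7 were higher in Minimal Myc, while both oxidases were lower, where 47.3% of all genes were higher. These counts are unscaled. In the scaled table Hspa5 was lower in Minimal Myc (637, against 766 with Myc) and Dnajb11 still higher (93.1, against 81.5).

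**Figure D3:**
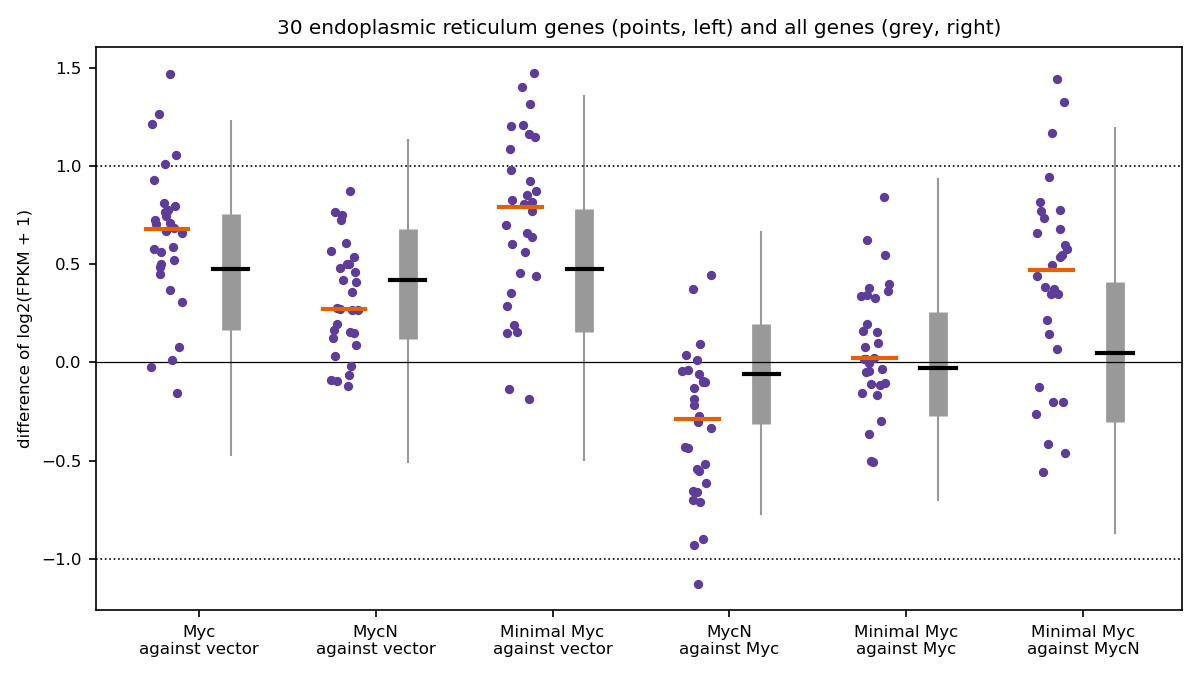
Difference of log2(FPKM + 1) in each comparison for the 30 measured genes (points, with their median as an orange line) and for all 11640 genes (grey box from the 25th to the 75th percentile, thin line from the 5th to the 95th, black line at the median). The set's median lies below that of all genes in MycN against Myc (-0.29 and -0.06) and above it in Minimal Myc against MycN (0.47 and 0.05).

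Genes with the stress response element and those without overlapped in every comparison with vector. Of 9 measured genes with it, 2 were at least 2-fold higher with Myc, 0 with MycN and 4 with Minimal Myc, and the medians were 0.73, 0.48 and 0.98. Of 16 measured genes whose window lacked these letters, 3, 0 and 3 were at least 2-fold higher, and the medians were 0.67, 0.27 and 0.68. The shares of all genes at least 2-fold higher were 11.2%, 7.65% and 13.6%. Relative to the median of all genes, the medians were 0.25, 0.06 and 0.50 with the element. Without these letters they were 0.20, -0.15 and 0.21. In Minimal Myc the genes with the element that passed were Hsp90b1, Dnajc3, Creld2 and Pdia6, while the other 5, Hspa5 (0.98), Canx (0.81), Calr (0.56), Syvn1 (0.46) and Ero1lb (0.15), did not. Sdf2l1, Dnajb11 and Sec61b passed with no exact match to these letters. Inexact copies were not searched, and Herpud1, which holds the second form, is counted among the 16. The 3 measured genes with an E-box, Dnajb9, Calr and Ssr1, had differences from vector of -0.15, 0.73 and 1.21 in Myc. The same 3 genes stood at -0.06, 0.76 and 0.50 in MycN, and at -0.19, 0.56 and 0.85 in Minimal Myc, so that Ssr1 in Myc was the 1 difference past 2-fold.

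**Figure D4:**
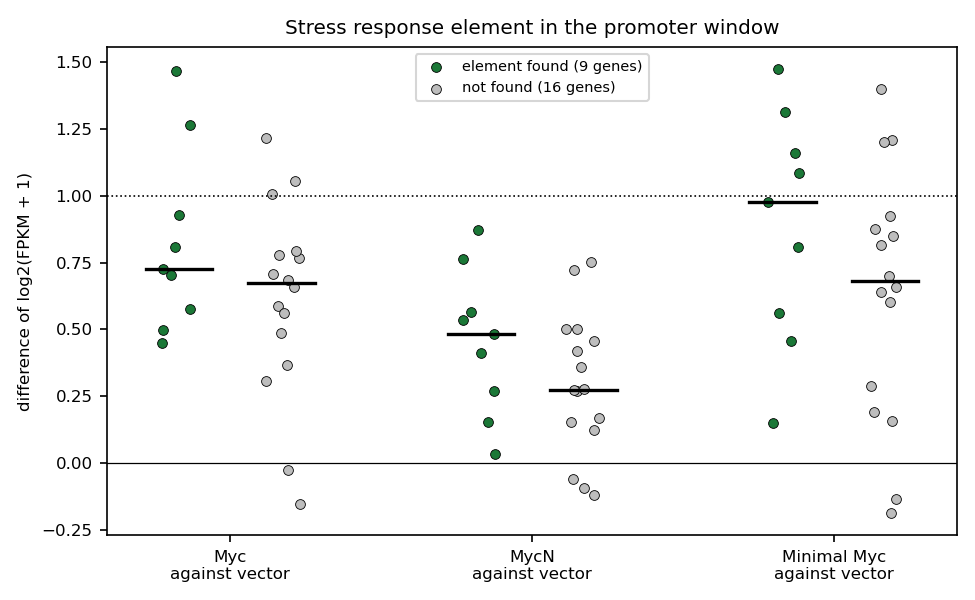
Difference of log2(FPKM + 1) from vector for 9 genes with an exact match to the stress response element in the promoter window (left, green). The 16 with no exact match are on the right (grey), and black lines are medians. The points of both kinds overlap in Myc, MycN and Minimal Myc.

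Other genes of the compartment were followed through lists chosen by function. Of 98 genes in 7 lists, 97 were measured, and at least 2-fold higher than vector were 11 with Myc (11.3%), 2 with MycN (2.06%) and 16 with Minimal Myc (16.5%), with 0 lower in each. The backgrounds for higher genes were 11.2%, 7.65% and 13.6%, and the counts of each list below are read against the same shares. For lower genes the backgrounds were 1.56%, 1.86% and 1.68%. Relative to the median of all genes, 1, 0 and 1 of the 97 were at least 2-fold higher (backgrounds 1.87%, 1.86% and 3.71%). On that count 2, 6 and 1 were at least 2-fold lower (backgrounds 4.38%, 4.19% and 4.68%). The 97 genes had median differences of 0.54, 0.33 and 0.62, against 0.47, 0.42 and 0.47 over all genes. Further folding enzymes had 2, 0 and 6 of 18 genes past 2-fold in Myc, MycN and Minimal Myc, with medians of 0.60, 0.49 and 0.83. Prdx4, a peroxide-using thiol enzyme, was at 221 FPKM with Myc, 112 with MycN and 219 with Minimal Myc, against 76.9 in vector. Erp29, a chaperone of secretory proteins, was at 71.5 FPKM with Myc, 55.3 with MycN and 96.9 with Minimal Myc, against 41.4 in vector. Both were thus lowest in MycN among the Myc proteins.

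Signal recognition, signal peptidase and further translocation genes had 3, 0 and 5 of 18 past 2-fold, with medians of 0.70, 0.30 and 0.69. Srp9, a protein of the signal recognition particle, was at 43.0 FPKM with Myc, 36.8 with MycN and 71.3 with Minimal Myc, against 26.0 in vector. Ssr4, a partner of Ssr1 and Ssr3, was at 84.2 FPKM with Myc, 58.4 with MycN and 137 with Minimal Myc, against 52.1 in vector. Sugar transfer and trimming genes had 2, 1 and 0 of 14 past 2-fold, with medians of 0.59, 0.40 and 0.65. Mogs, which trims the first glucose, was at 31.8 FPKM with Myc, 34.4 with MycN and 26.8 with Minimal Myc, against 14.9 in vector. Rpn1, a subunit of the oligosaccharyltransferase, was at 103 FPKM with Myc, 78.9 with MycN and 76.8 with Minimal Myc, against 49.97 in vector. Minimal Myc was not the highest library for either of these.

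Further degradation genes had 1, 0 and 0 of 14 past 2-fold, with medians of 0.51, 0.34 and 0.51. Ube2g2, a ubiquitin-conjugating enzyme, was at 44.4 FPKM with Myc, 23.7 with MycN and 38.3 with Minimal Myc, against 20.0 in vector. Erlec1, a lectin that binds Sel1l, was at 9.80 FPKM with Myc, 10.0 with MycN and 11.4 with Minimal Myc, against 5.75 in vector. Export and retrieval genes had 2, 0 and 3 of 14 past 2-fold, with medians of 0.52, 0.32 and 0.57. Sar1b, the GTPase that starts vesicle coats, was at 39.8 FPKM with Myc, 22.4 with MycN and 41.9 with Minimal Myc, against 15.5 in vector. Kdelr3, a receptor that returns escaped chaperones, was at 26.2 FPKM with Myc, 37.3 with MycN and 49.6 with Minimal Myc, against 21.0 in vector.

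The Perk and Atf4 arm did not share the level of the chaperones. Its 10 genes had medians of -0.09 with Myc, -0.03 with MycN and 0.17 with Minimal Myc, each below the median of all genes, and 1 gene passed 2-fold, Ppp1r15b in MycN. Relative to that median, 1, 3 and 1 of the 10 were at least 2-fold lower (backgrounds 4.38%, 4.19% and 4.68%). Ppp1r15b, a subunit that guides dephosphorylation of eIF2alpha, was at 25.3 FPKM with Myc, 34.1 with MycN and 26.6 with Minimal Myc, against 14.5 in vector. Sesn2, a stress-induced regulator of growth signalling, was at 5.98 FPKM with Myc, 5.76 with MycN and 13.7 with Minimal Myc, against 6.67 in vector. Ddit3, the stress factor Chop, was at 63.5 FPKM with Myc, 37.6 with MycN and 90.7 with Minimal Myc, against 65.5 in vector. Ddit3 was named after its values were seen. Like Sdf2l1 and Dnajc3, it was lowest among the Myc proteins in MycN, where its level was below that of vector. The arm as a whole did not share this order. Of its 10 genes, 5 were higher and 5 lower in MycN than in Myc, with a median of 0.07.

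**Figure D5:**
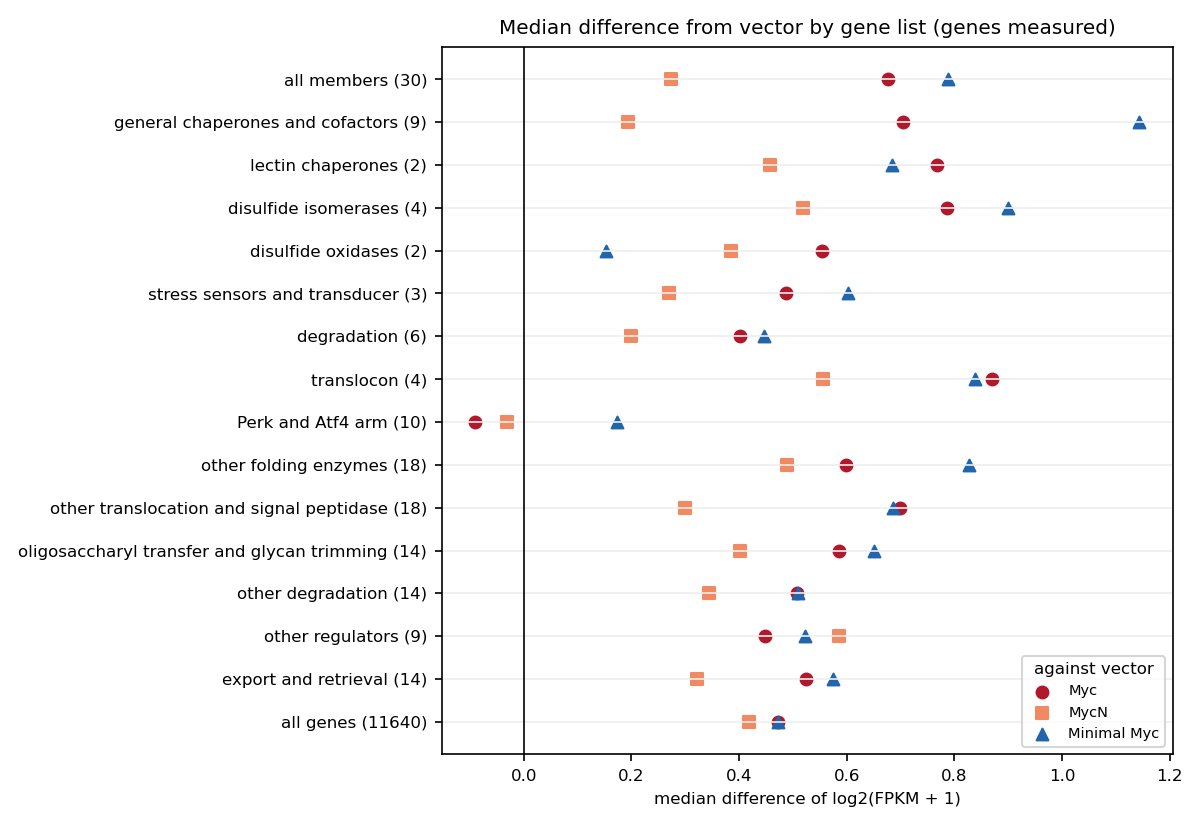
Median difference of log2(FPKM + 1) from vector for the 7 roles of the set, the 7 further lists and all genes, with the number of genes measured in parentheses. The chaperones stand out in Minimal Myc (1.14), and the Perk and Atf4 arm lies near 0 in Myc, MycN and Minimal Myc (-0.09, -0.03 and 0.17).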

How the data were processed

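RNA-seq libraries of 4 fibroblast cultures were analysed from tables deposited by the authors. Build mm9 and the tools Cufflinks 2.2.0 and TopHat2 2.0.11 are named, per the submitters' processing notes, without role or order. The authors deposited FPKM in 2 tables; in the second, every value is multiplied by 1 factor per library (2.04 for Myc, 1.30 for MycN, 1.28 for Minimal Myc, 1 for vector). The 32 rows of NanoString signal hold 0 members and were not used.

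Identical rows of a gene were merged and differing rows summed (0 members). Genes averaging 1 FPKM or more were kept, without small RNA symbols (Mir, Snora, Snord, Scarna, Rnu). Differences are of log2(FPKM + 1), which understates those of low genes, with Python 3.11.15 and pandas 2.3.3; the calculation was tested on simulated data. No test was possible with 1 library per group. Members and lists were chosen with earlier results of these data known. All members were named; from each further list, the 2 genes with the largest difference from vector. Ddit3 and the second element form were added after values were seen. Promoters are RefSeq's (GRCm38.p6): 29 genes were matched by symbol and 2 (Ero1l and Ero1lb) by synonym.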

Additional observations from a re-analysis of the deposited data

How the results depend on the processing

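With the authors' scaled table, the counts of genes at least 2-fold higher than vector were 27 with Myc, 4 with MycN and 17 with Minimal Myc, in place of 5, 0 and 8, while the medians of all genes were 1.42, 0.76 and 0.80. There, 13 genes were at least 2-fold lower in MycN than in Myc and 3 lower in Minimal Myc than in Myc, and the median of Minimal Myc against Myc was -0.60 in place of 0.02. Centred on the median of all genes, 0 genes in Myc and 1 in Minimal Myc were 2-fold higher than vector, and the median in MycN was -0.15. The direction of the median in MycN against vector and in Minimal Myc against Myc therefore depends on the scaling. In each of these scalings MycN had the lowest median of the 3 against vector. The order of the libraries for single genes also depends on the scaling. In the scaled table Hspa5 and Manf were highest with Myc and no longer with Minimal Myc, while Dnajb11 stayed highest with Minimal Myc. Dnajb9 and Sdf2l1 in MycN moved from below vector to above it. A pseudocount of 0.1 FPKM, no filter, a minimum mean of 5 FPKM and the highest row of a gene moved no count by more than 1.5 times. No paired analysis was possible because each group has 1 library. Unknown depth limits Ero1lb, Ern1 and Derl3 most.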

Other observations

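Among 9 further regulators of the response, 1 gene with Myc, 0 with MycN and 2 with Minimal Myc were at least 2-fold higher than vector, with medians of 0.45, 0.59 and 0.52. Creb3l1, a membrane-bound transcription factor that is cut in the Golgi like Atf6, was at 5.45 FPKM with Myc, 3.69 with MycN and 18.6 with Minimal Myc, against 6.34 in vector. It had the largest difference of the 97 measured genes of the further lists between Minimal Myc and MycN (2.06) and between Minimal Myc and Myc (1.604). Col1a1, a collagen gene it drives in mouse bone and one named after its values were seen, had another order. It was at 243 FPKM with Myc, 240 with MycN and 190 with Minimal Myc, against 147 in vector. Col1a2 and Col3a1, also among the fibroblast markers, each had a different order again. Whether Creb3l1 acts on these genes here was not tested. Mbtps2, a protease that cuts both factors, was at 10.7 FPKM with Myc, 7.49 with MycN and 8.12 with Minimal Myc, against 4.38 in vector.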
